A study of Homo sapiens with 9 samples.

Results

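The nucleic acid sensors and adaptors described here are 10 genes that detect foreign or misplaced RNA and DNA or relay that signal, chosen by name from a table of 58387 genes measured by RNA-seq in MM1S cells. They are the cytosolic RNA sensors DDX58 (RIG-I), IFIH1 (MDA5) and DHX58 (LGP2), their mitochondrial adaptor MAVS, the cytosolic DNA sensor MB21D1 (cGAS), its adaptor TMEM173 (STING), the endosomal Toll-like receptors TLR3, TLR7 and TLR9, and the transcription factor IRF3. Symbols are those of the deposited table. All 10 were found in it, and 9 of 10 passed the filter on low counts, TLR9 being the exception.

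MM1S is an established human multiple myeloma line, a cancer of plasma cells. The groups were KD_Rescued (n = 2), cells with a lentiviral shRNA against PHF19 to which shRNA-resistant PHF19 had been returned, PHF19_KD (n = 3), cells with that shRNA alone, and shEV (n = 3), cells infected with the empty vector. All were grown in regular medium with no added nucleic acid or interferon named in the labels. The labels name a single shRNA and do not say whether lines were clones or pools or whether replicates were separate cultures, so each p-value reflects library-to-library spread, which may be technical. PHF19 belongs to Polycomb repressive complex 2, which methylates histone H3 at lysine 27. A further library carries a knockdown title and an shRNA-resistant PHF19 label. It entered no test and is shown apart.

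RIG-I and MDA5 bind double-stranded RNA through a helicase domain and signal through paired CARD domains to MAVS on the mitochondrial surface. LGP2 has the helicase but lacks the CARD domains, and it tunes the other two. cGAS binds double-stranded DNA and makes cyclic GMP-AMP, which activates STING on the endoplasmic reticulum. TLR3, TLR7 and TLR9 recognise double-stranded RNA, single-stranded RNA and unmethylated CpG DNA in endosomes, and the last 2 are best known from B cells and plasmacytoid dendritic cells. MAVS, STING and TLR3 lead to phosphorylation of IRF3, which then switches on the interferon beta gene. Several sensor genes are themselves induced by interferon.

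Depth and composition differed between groups. Column totals were 23644100 to 23751400 counts for KD_Rescued, 10609800 to 12024900 for PHF19_KD and 16974700 to 22739700 for shEV. PHF19 followed its labels. Its mean was 219 ± 1.74 CPM for KD_Rescued (SD, n = 2), 26.9 ± 0.860 for PHF19_KD and 117 ± 11.8 for shEV (SD, n = 3 each). CPM are counts relative to library size, adjusted with TMM factors, and since no transcript length enters, they are not compared between genes. Mitochondrially encoded genes took 4.99% to 5.18% of counts in KD_Rescued, 9.02% to 10.0% in PHF19_KD and 2.84% to 3.32% in shEV. Per the library names, both KD_Rescued libraries ran in another lane than the rest, and an effect of lane cannot be told apart from rescue. The median log2 fold change of all tested genes between PHF19_KD and shEV was 0.03, and 0.19 with upper-quartile scaling, which raised the share of higher calls from 50.5% to 60.6%. In bulk RNA, fewer cells with a transcript and less RNA per cell cannot be told apart.

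The line carried its own markers and few of others. All 8 plasma cell markers were tested. Their summed level was 8679 to 8761 CPM for KD_Rescued, 6552 to 6720 CPM for PHF19_KD and 9767 to 10947 CPM for shEV. The markers did not move one way, since 3 of the 8 were called higher and 3 lower in PHF19_KD than in shEV (median -0.06 on the log2 scale). The 6 markers of plasmacytoid dendritic cells, a cell type known for TLR7 and TLR9, summed to at most 0.520 CPM in any fitted library, and CLEC4C was at 0 in all of them. The 8 monocyte markers summed to at most 0.607 CPM. Among T and NK cell markers, CD3E alone was tested, and it was lower in PHF19_KD (0.435 CPM) than in shEV (1.08 CPM). Among fibroblast markers, COL1A1 alone was tested, and it was higher in PHF19_KD (2.54 CPM) than in shEV (0.579 CPM). The 6 T and NK cell markers summed to 1.95 to 2.04 CPM for KD_Rescued, 0.607 to 0.910 for PHF19_KD and 1.30 to 1.71 for shEV, and the 5 fibroblast markers to 0.375 to 0.417 CPM for KD_Rescued, 2.23 to 2.79 for PHF19_KD and 0.362 to 0.767 for shEV. In each of these lists 2 genes were at 0 in all libraries. Their part in the results was not tested.

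In the knockdown against the empty vector, LGP2, STING, RIG-I and IRF3 transcripts were higher and cGAS and TLR7 transcripts were lower. TLR3 and MAVS were also called higher, but these calls were lost in 2 of 15 and 11 of 16 alternatives. Of the 9 tested genes, 8 were called at an adjusted p below 0.05, against 69.1% of all 16600 tested genes, so being called sets the list little apart from other genes. Of these, 6 were higher and 2 lower, where 34.9% of all genes were called higher and 34.2% lower. The median log2 fold change of the 9 was 0.84, beside 0.03 over all tested genes. Library ranges were separate for 8 of the 9, against 71.9% of all genes, with PHF19_KD above shEV for 6 (36.6% of all genes) and below for 2 (35.3%). TLR3 and TMEM173 passed the filter only through groups where they were high, so these counts and the median are partly set by the filter.

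**Figure D1:**
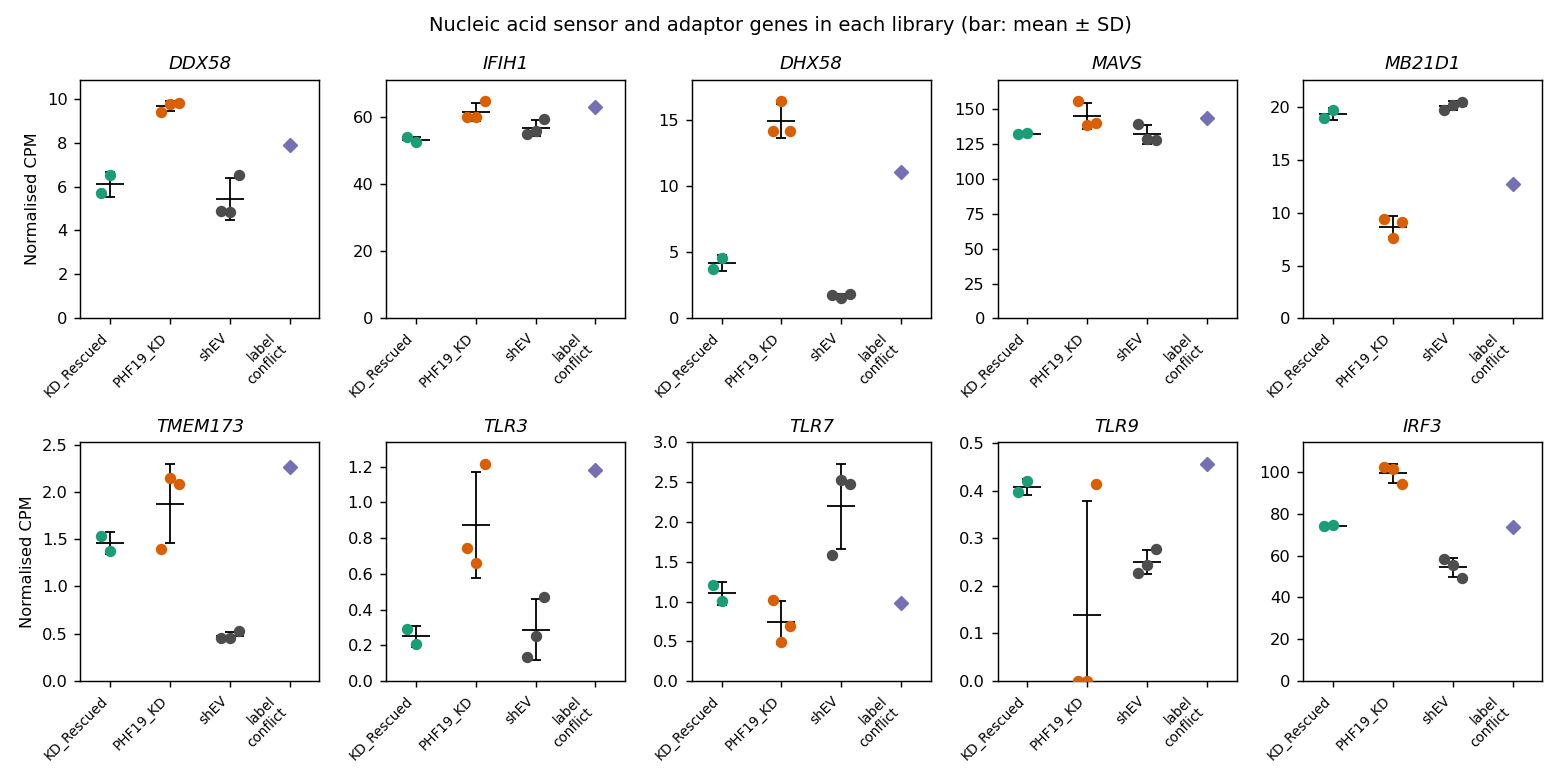
Normalised CPM (y axis, linear and starting at 0, a separate scale per gene) of the 10 genes in each library, by group on the x axis. Circles are libraries, bars are the mean ± SD of a group, and the diamond is the library with disagreeing labels. DHX58 and TMEM173 lie lowest in shEV, MB21D1 lies lowest in PHF19_KD, and IFIH1 and MAVS differ little between groups.

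Among the cytosolic RNA sensors, DHX58 moved by far the most. Its level was 3.74 and 4.59 CPM in KD_Rescued, 14.1, 16.4 and 14.1 in PHF19_KD, and 1.76, 1.57 and 1.83 in shEV. Each PHF19_KD library lay above every other fitted library, both KD_Rescued libraries lay between, and the 3 groups did not overlap. The log2 fold change between PHF19_KD and shEV was 3.11 ± 0.14 (SE; adjusted p = 1.68e-09, edgeR's quasi-likelihood test with Benjamini-Hochberg adjustment), an 8.65-fold higher level. Only 1.56% of tested genes had a larger log2 fold change. After rescue DHX58 fell by 1.84 ± 0.14 on the log2 scale relative to PHF19_KD (adjusted p = 2.08e-07, same test), and it was 1.28 ± 0.16 above shEV (adjusted p = 9.40e-05, same test). These calls rest on 90 to 110 reads in KD_Rescued, 152 to 198 in PHF19_KD and 31 to 39 in shEV.

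DDX58, which encodes RIG-I, changed in the same direction with a smaller size. It had 5.70 and 6.51 CPM in KD_Rescued, 9.40, 9.76 and 9.80 in PHF19_KD, and 4.88, 4.85 and 6.55 in shEV. All PHF19_KD libraries were above the others, while KD_Rescued and shEV overlapped. DDX58 rose by 0.84 ± 0.13 in PHF19_KD against shEV (SE, log2; edgeR quasi-likelihood adjusted p = 0.000136) and fell by 0.66 ± 0.14 in KD_Rescued against PHF19_KD (adjusted p = 0.00166, same test). Between KD_Rescued and shEV the log2 fold change was 0.18 ± 0.14 and was not called (adjusted p = 0.355, same test). Their overlap came from shEV replicate 3 (6.55 CPM). Without that library the log2 fold change was 0.32 and was still not called (adjusted p = 0.0609, same test).

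IFIH1, the MDA5 gene, stood apart from its relatives. It had 53.9 and 52.6 CPM in KD_Rescued, 60.0, 60.0 and 64.7 in PHF19_KD, and 54.9, 56.0 and 59.5 in shEV. The PHF19_KD libraries lay just above the highest shEV library. The log2 fold change between PHF19_KD and shEV was 0.12 ± 0.06 and missed the threshold (SE; edgeR quasi-likelihood adjusted p = 0.0768). It reached 0.27 with upper-quartile scaling (adjusted p = 0.00117), a setting that moved the median of all genes upward as given above, and it was also called with a filter at 5 CPM and without shEV replicate 3 (adjusted p = 0.00446 and 0.0132). IFIH1 was 0.21 ± 0.06 lower on the log2 scale in KD_Rescued than in PHF19_KD (log2 fold change -0.21, adjusted p = 0.0102, edgeR), a call that ended without a filter and without either KD_Rescued library (adjusted p = 0.0505, 0.0511 and 0.0900). Between KD_Rescued and shEV it was not called (-0.09 ± 0.06, adjusted p = 0.249, edgeR). The 3 RNA sensor genes had whole counts in all 9 libraries. Estimated counts that are not whole can arise where reads are divided between genes, and the number of such libraries is given for the other sensors and adaptors and for the genes of the lists below where it is not 0.

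The promoters of DDX58, IFIH1 and TLR3 are shown because genes of this family are known interferon targets and the 3 genes moved by different amounts. Each stretch is from RefSeq (GRCh38.p14) and covers 250 bases before to 50 after the gene start, 5′ to 3′ on the gene's strand. Promoters were found for 5 of the 10 genes, and not for DHX58, MB21D1, TMEM173, TLR7 and IRF3. Capitals mark every match to GAAA, any 2 bases and GAAA, read on either strand, a pattern of the interferon-stimulated response element, and neighbouring matches on one strand can overlap. DDX58 is on chr9:32526147-32526446 (minus strand), IFIH1 on chr2:162318635-162318934 (minus strand) and TLR3 on chr4:186068906-186069205 (plus strand).
DDX58: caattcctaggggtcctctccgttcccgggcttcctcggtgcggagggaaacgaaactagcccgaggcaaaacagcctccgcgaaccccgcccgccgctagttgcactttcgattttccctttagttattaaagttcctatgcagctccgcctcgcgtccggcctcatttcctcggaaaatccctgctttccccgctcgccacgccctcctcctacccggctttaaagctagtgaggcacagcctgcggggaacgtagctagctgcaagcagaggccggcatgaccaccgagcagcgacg
IFIH1: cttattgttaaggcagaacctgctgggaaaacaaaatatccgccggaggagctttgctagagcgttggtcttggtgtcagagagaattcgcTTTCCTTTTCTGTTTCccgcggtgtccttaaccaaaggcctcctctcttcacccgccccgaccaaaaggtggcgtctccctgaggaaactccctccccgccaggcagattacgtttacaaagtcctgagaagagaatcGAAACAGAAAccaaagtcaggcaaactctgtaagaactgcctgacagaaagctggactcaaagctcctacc
TLR3: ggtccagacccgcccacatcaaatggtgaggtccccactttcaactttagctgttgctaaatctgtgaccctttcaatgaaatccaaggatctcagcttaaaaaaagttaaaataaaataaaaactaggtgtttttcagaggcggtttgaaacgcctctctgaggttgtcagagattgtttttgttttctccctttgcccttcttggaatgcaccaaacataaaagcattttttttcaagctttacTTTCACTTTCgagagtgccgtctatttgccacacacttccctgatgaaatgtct
IFIH1 held 3 matches, which began 159, 153 and 21 bases before the start, and TLR3 held 1 match. DDX58 held 0 in this window, as did MAVS and TLR9. The pattern occurred in 3.57% of 35116 promoters of this length. Only a gap of 2 bases was searched, and the DDX58 stretch holds gaaacgaaa, where the gap is 1 base. TLR3 also held 2 matches to TTCNNNGAA, a pattern read the same on both strands and bound by STAT factors, which 7.66% of promoters held, and the other 4 held 0. Any link between matches and fold changes was not tested. A match is a string of letters, and binding was not measured.

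MAVS, the adaptor shared by RIG-I and MDA5, was nearly level across groups, with counts not whole in 3 of 9 libraries. It had 132 and 133 CPM in KD_Rescued, 156, 139 and 141 in PHF19_KD, and 140, 129 and 128 in shEV. The lowest PHF19_KD library lay below the highest shEV library. Its log2 fold change between PHF19_KD and shEV was 0.13 ± 0.06 (SE) and passed narrowly (edgeR quasi-likelihood adjusted p = 0.0476). That call was lost in 11 of 16 alternatives, with an adjusted p of up to 0.610. After rescue MAVS was not called relative to PHF19_KD (-0.13 ± 0.06, adjusted p = 0.0846, edgeR), nor relative to shEV (0.00 ± 0.06, adjusted p = 0.963, edgeR). Under 6 of 16 alternatives it was called lower in KD_Rescued than in PHF19_KD, with a log2 fold change of -0.28 and adjusted p = 0.00122 under upper-quartile scaling.

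On the DNA-sensing side, sensor and adaptor went in opposite directions. MB21D1, which encodes cGAS, had 19.0 and 19.8 CPM in KD_Rescued, 9.40, 7.61 and 9.11 in PHF19_KD, and 19.7, 20.2 and 20.5 in shEV. Its PHF19_KD level was 43.2% of shEV, with no overlap between these groups. The change was -1.21 ± 0.09 between PHF19_KD and shEV (SE, log2; edgeR quasi-likelihood adjusted p = 1.69e-07) and 1.16 ± 0.10 in KD_Rescued relative to PHF19_KD (adjusted p = 6.08e-07, same test). KD_Rescued and shEV overlapped, and MB21D1 was not called there (-0.05 ± 0.08, adjusted p = 0.641, same test). It was the single gene of the 10 called higher after rescue. In GENCODE 29 its exons share 180 bases with DDX43 on the opposite strand, a gene with at most 1.03 counts in any library, and its counts were not whole in 2 of 9 libraries.

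TMEM173, the STING gene, had 1.54 and 1.38 CPM in KD_Rescued, 1.40, 2.15 and 2.08 in PHF19_KD, and 0.452, 0.455 and 0.531 in shEV. Every library with the shRNA lay above every shEV library, and both shRNA groups overlapped each other. The log2 fold change was 1.97 ± 0.29 between PHF19_KD and shEV (SE; edgeR quasi-likelihood adjusted p = 7.31e-05) and 1.60 ± 0.30 in KD_Rescued relative to shEV (adjusted p = 0.00148, same test). Between KD_Rescued and PHF19_KD it was -0.37 ± 0.28 and was not called (adjusted p = 0.266, same test). The level was low in all groups, at 33 to 37 reads per library in KD_Rescued, 15 to 26 in PHF19_KD and 9 to 10 in shEV. No shEV library reached the filter's level. TMEM173 was therefore tested only through the groups with the shRNA, where it was high.

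The endosomal receptors were near the limit of detection. TLR3 had 7 and 5 reads in KD_Rescued (0.291 and 0.209 CPM), 8, 8 and 14 reads in PHF19_KD (0.744, 0.662 and 1.21 CPM), and 3, 5 and 8 reads in shEV (0.136, 0.253 and 0.472 CPM). PHF19_KD lay above the other groups in CPM, although its read numbers overlapped theirs. TLR3 passed the filter through the PHF19_KD libraries alone, so the tests below were run on a gene admitted where it was high. TLR3 was called higher in PHF19_KD than in shEV (1.64 ± 0.50, SE, log2; edgeR quasi-likelihood adjusted p = 0.0117) and lower in KD_Rescued than in PHF19_KD (-1.78 ± 0.55, adjusted p = 0.0140, same test). Without PHF19_KD replicate 3, which held 14 reads, these became 1.33 (adjusted p = 0.0625) and -1.47 (adjusted p = 0.0605), and neither was called. DESeq2 called neither (adjusted p = 0.0504 and 0.0517), and the second was also lost without KD_Rescued replicate 2 (adjusted p = 0.1004). KD_Rescued and shEV overlapped (-0.14 ± 0.60, adjusted p = 0.879, edgeR), with a log2 fold change of 0.06 without KD_Rescued replicate 2 and 0.37 without shEV replicate 3.

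TLR7 ran the other way. It had 29 and 24 reads in KD_Rescued (1.21 and 1.00 CPM), 11, 6 and 8 reads in PHF19_KD (1.02, 0.496 and 0.694 CPM), and 35, 50 and 42 reads in shEV (1.58, 2.53 and 2.48 CPM). Both shRNA groups lay below every shEV library and overlapped each other. TLR7 fell by 1.57 ± 0.32 in PHF19_KD against shEV (SE, log2; edgeR quasi-likelihood adjusted p = 0.000941), and 4.97% of tested genes had a lower log2 fold change. The difference between KD_Rescued and PHF19_KD was 0.59 ± 0.37 and was not called (adjusted p = 0.181, same test). KD_Rescued was called lower than shEV (-0.98 ± 0.31, adjusted p = 0.0245, same test), but without KD_Rescued replicate 1, KD_Rescued replicate 2 or shEV replicate 2 that call was lost (adjusted p = 0.0726, 0.150 and 0.0718), as it was with DESeq2 (adjusted p = 0.0832).

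TLR9 did not pass the filter and was not tested. Estimated reads were 9.54 and 10.1 in KD_Rescued, 0, 0 and 4.78 in PHF19_KD, and 5.03, 4.83 and 4.71 in shEV. Both KD_Rescued libraries, at 0.397 and 0.420 CPM, lay above every shEV library. In the 2 libraries at 0, a count of 0 allows up to 0.279 and 0.248 CPM (3 counts, counting error only), which overlaps the shEV range of 0.228 to 0.278 CPM, so no difference from shEV was detectable at this depth. Its values were not whole in 7 of 9 libraries, and in GENCODE 29 its exons share 3341 bases with AC097637.1 on the same strand, so its level is uncertain.

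IRF3, the factor that MAVS, STING and TLR3 act on, had 74.2 and 74.5 CPM in KD_Rescued, 102, 101 and 94.2 in PHF19_KD, and 58.2, 55.6 and 49.2 in shEV. The 3 groups did not overlap, and KD_Rescued lay between the others. IRF3 rose by 0.87 ± 0.06 in PHF19_KD against shEV (SE, log2; edgeR quasi-likelihood adjusted p = 1.47e-07), fell by 0.42 ± 0.07 in KD_Rescued against PHF19_KD (adjusted p = 0.000224, same test) and was 0.45 ± 0.07 higher in KD_Rescued than in shEV (adjusted p = 0.000354, same test). Its counts were not whole in 7 of 9 libraries. In GENCODE 29, 734 bases of its exons overlap BCL2L12 on the opposite strand, and without a stated strand setting their reads cannot be told apart. BCL2L12 moved in the opposite direction, with means of 25.2 CPM for KD_Rescued, 10.9 CPM for PHF19_KD and 21.2 CPM for shEV and a log2 fold change of -0.95 ± 0.11 between PHF19_KD and shEV (adjusted p = 6.73e-06, same test).

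**Figure D2:**
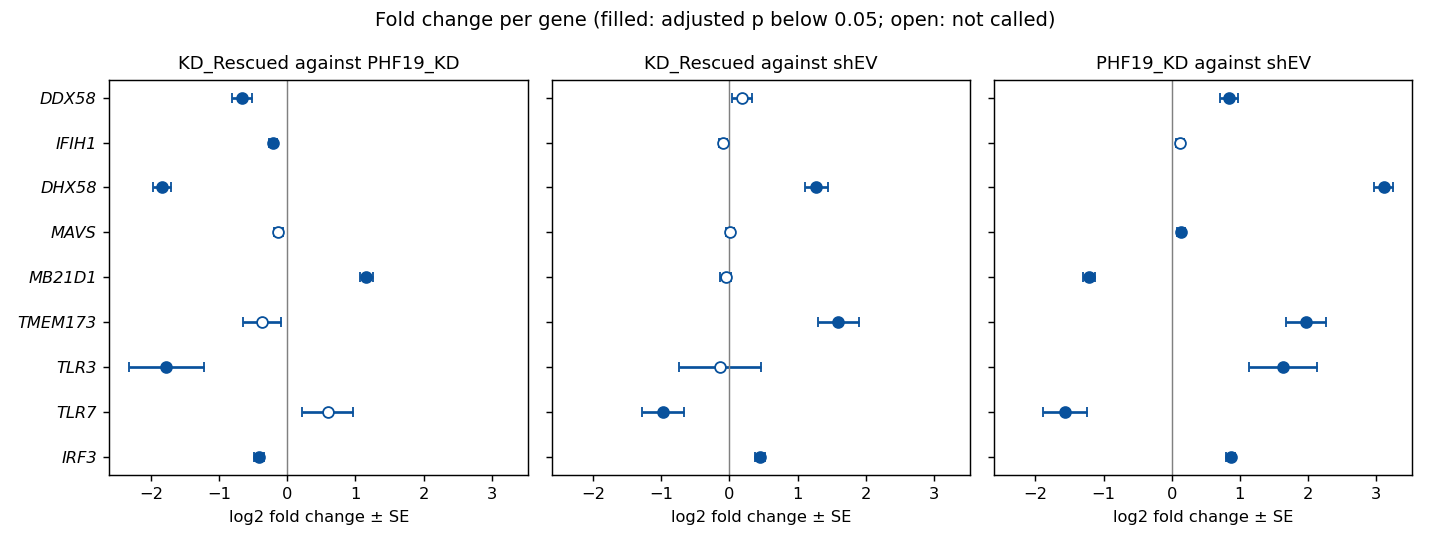
Log2 fold change (x axis) of the 9 tested genes (y axis) in the 3 comparisons, with SE bars. Filled points passed the adjusted p threshold of 0.05 and open points did not. DHX58 has the largest change between PHF19_KD and shEV at 3.11, and TMEM173 the largest between KD_Rescued and shEV at 1.60.

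In rescued cells, 5 of the 9 tested genes (DDX58, IFIH1, DHX58, TLR3 and IRF3) were lower than in PHF19_KD and 1 (MB21D1) was higher, so 6 were called against 63.4% of all tested genes. Over all genes, 29.5% were called lower and 33.9% higher. The median log2 fold change of the 9 was -0.37, beside 0.03 over all tested genes, and library ranges were separate for 7 of the 9, against 77.2% of all genes, with KD_Rescued below PHF19_KD for 6 (36.4% of all genes) and above for 1 (40.8%). Without KD_Rescued replicate 2 only 3 were called lower, and the share of all genes called also fell, from 63.4% to 52.5%. This comparison and the previous one share the PHF19_KD libraries, and TLR3 passed the filter through these libraries alone.

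How far rescued cells stood from the control differed between genes. Of the 9 tested genes 4 were called between KD_Rescued and shEV, against 39.8% of all tested genes. DHX58, TMEM173 and IRF3 were higher, where 20.7% of all genes were, and TLR7 was lower, where 19.1% were. TMEM173 had a larger log2 fold change than 97.2% of tested genes in this comparison and DHX58 than 95.2%. TMEM173 passed the filter only through the libraries with the shRNA, where it was high. Library ranges were separate for 5 of 9, against 61.8% of all genes, with KD_Rescued above shEV for 3 (32.5%) and below for 2 (29.2%). DDX58, IFIH1, MAVS, MB21D1 and TLR3 were not called, and their log2 fold changes lay between -0.14 and 0.18. PHF19 itself was at 188% of its shEV level in rescued cells.

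In the library whose labels disagree, PHF19 was at 63.6 CPM, between PHF19_KD and shEV. It had 11.04 CPM of DHX58, 12.7 CPM of MB21D1 and 7.89 CPM of DDX58, which are also between the ranges of these groups. Its IRF3 level was 73.7 CPM, just below the KD_Rescued libraries. TMEM173 at 2.27 CPM was above every fitted library. So was TLR9 at 0.456 CPM, on 4.62 estimated reads. TLR3 at 1.18 CPM and TLR7 at 0.986 CPM were within the PHF19_KD range. IFIH1 at 63.0 CPM and MAVS at 144 CPM were within that range too.

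For the genes called in both knockdown comparisons, the closest profiles among all tested genes over the 8 libraries were found by the distance between log2 CPM values centred on each gene. DDX58 was nearest to IFNGR1, a chain of the interferon gamma receptor (distance 0.25), and CTA-292E10.9 (0.26), whose counts were not whole in any of the 9 libraries. DHX58 was nearest to RAB3IL1 (0.47) and TSPAN18 (0.49), the second with counts not whole in 5 libraries. MB21D1 was nearest to RPIA (0.15), an enzyme of the pentose phosphate pathway, and TRIM24 (0.16). TLR3 was nearest to RP5-943J3.2 (0.60) and DOCK6 (0.63), and IRF3 to CYHR1 (0.11) and CLN8 (0.12). These distances are descriptions over libraries that fall into the same 3 groups.

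**Figure D3:**
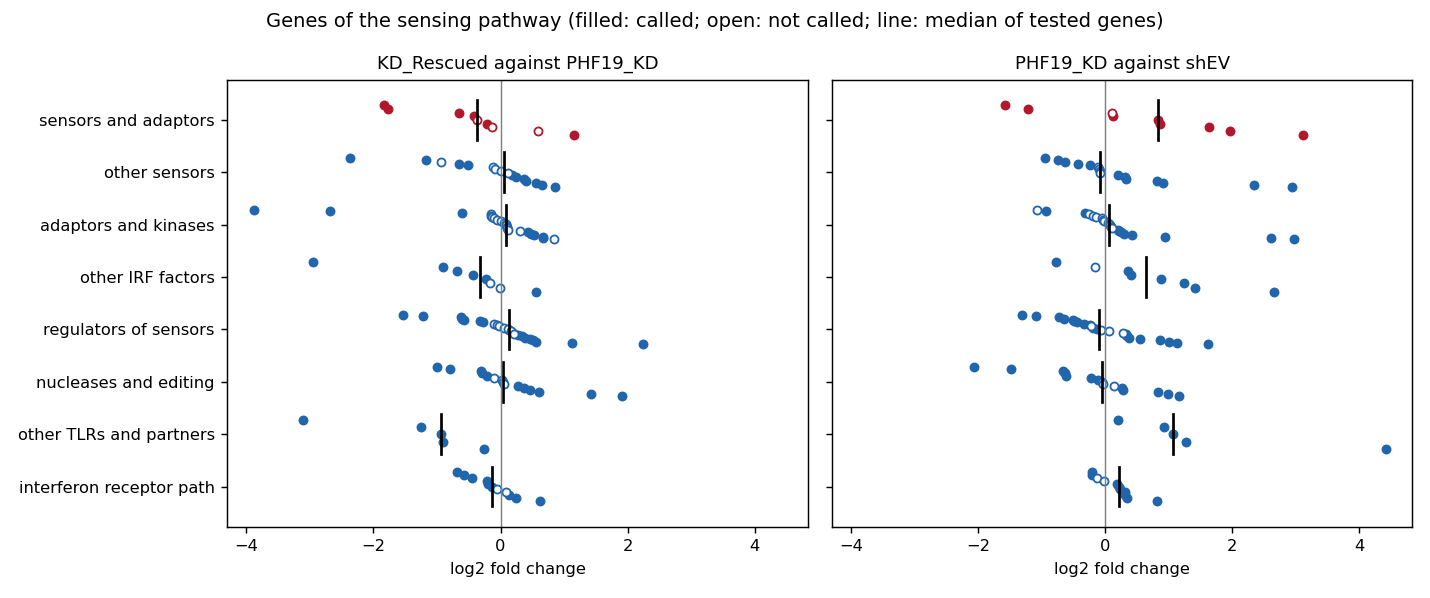
Log2 fold change (x axis) of the tested genes of each list (y axis) between KD_Rescued and PHF19_KD (left) and between PHF19_KD and shEV (right). Filled points were called, open points were not, and vertical lines are medians. In the right panel the 9 sensors and adaptors have a median of 0.84, the other IRF factors 0.64 and the other Toll-like receptors and partners 1.08, while the remaining lists centre between -0.09 and 0.22.

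The wider pathway was described from lists of named genes, each read against the share of all genes called, which was 34.9% higher and 34.2% lower in PHF19_KD against shEV, 33.9% higher and 29.5% lower in KD_Rescued against PHF19_KD, and 20.7% higher and 19.1% lower in KD_Rescued against shEV. Counts were not whole in any of the 9 libraries for IRF9, SLC19A1, TREX1, TLR1 and IFNAR2, in 8 for DHX9 and TOMM70A, in 7 for PCBP2, in 6 for RNF125, in 5 for TBK1 and in 4 for OAS1, DDX1 and IRF1. They were not whole in 3 for STAT2, in 2 for IRAK1, CHUK and RNASET2 and in 1 for RNASEH2A, PLD3 and IFNLR1, and they were whole for the other genes named from these lists. Among 16 tested other nucleic acid sensors, 7 were higher and 5 lower in PHF19_KD than in shEV, with a median log2 fold change of -0.08. AIM2, a cytosolic DNA sensor of inflammasomes, rose by 0.91 ± 0.09 (SE), and OAS1, which makes the second messenger of RNase L, rose by 0.81 ± 0.08. The helicase genes DHX9 and DDX1 changed by -0.95 ± 0.04 and -0.74 ± 0.05. TLR8 had 0 counts in all libraries. In KD_Rescued against PHF19_KD, 4 of these 16 sensors were lower (29.5% of all genes), AIM2 at -1.17 ± 0.10 among them, and 7 were higher (33.9%).

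Signalling adaptors and kinases followed. Of 22 tested, 8 were higher and 2 lower in PHF19_KD than in shEV, 12 were not called, and the median was 0.07. TBKBP1, an adaptor of the kinase TBK1, averaged 0.250 CPM in KD_Rescued, 3.79 in PHF19_KD and 0.470 in shEV, a log2 fold change of 2.98 ± 0.25 between PHF19_KD and shEV. TBKBP1 had 5 and 7 reads in KD_Rescued, 42, 46 and 42 in PHF19_KD, and 12, 9 and 7 in shEV. Only the PHF19_KD libraries, where it was high, carried TBKBP1 past the filter. IRAK2, a kinase-like protein downstream of Toll-like receptors, followed it at 2.62 ± 0.17. CHUK, an IkB kinase gene, changed by -0.93 ± 0.07 and IRAK1 by -0.32 ± 0.07. TBK1, the kinase that phosphorylates IRF3, was not called (-0.13), nor was the Toll-like receptor adaptor gene MYD88 (0.12), and both are named after their values were seen. Between KD_Rescued and PHF19_KD 5 genes of the list were higher and 3 lower, with TBKBP1 at -3.88 ± 0.31 and IRAK2 at -2.68 ± 0.19.

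Other interferon regulatory factors rose with IRF3 in most cases. Of 8, 6 were higher and 1 lower in PHF19_KD than in shEV, with a median of 0.64. IRF9, the DNA-binding part of the complex that interferon activates, changed by 1.41 ± 0.10, and IRF1 changed by 0.87 ± 0.04. IRF4, a plasma cell factor, was the fall, at -0.78 ± 0.04. Rescued cells had 5 of the 8 lower (29.5% of all genes) and 1 higher (33.9%) than PHF19_KD, and 3 higher (20.7%) and 3 lower (19.1%) than shEV. Relative to PHF19_KD, IRF1 was at -0.90 ± 0.05. IRF9 averaged 17.8 CPM in KD_Rescued, 17.9 in PHF19_KD and 6.72 in shEV, and its log2 fold change between KD_Rescued and shEV was 1.40 ± 0.10.

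All 5 tested genes among other Toll-like receptors and their partners were higher in PHF19_KD than in shEV, with a median of 1.08, and all 5 were lower in KD_Rescued than in PHF19_KD, with a median of -0.94. TLR5, the flagellin receptor gene, averaged 0.521 CPM in KD_Rescued, 4.55 in PHF19_KD and 0.211 in shEV, a log2 fold change of 4.42 ± 0.29 between PHF19_KD and shEV. LY96, the partner of TLR4 in binding lipopolysaccharide, changed by 1.28 ± 0.09. TLR4 changed by -0.94 ± 0.08 and TLR1 by -1.25 ± 0.10 between KD_Rescued and PHF19_KD. The other 4 of the list did not pass the filter. A low gene such as TLR5 can pass it through the group where it is high, here PHF19_KD. The shared direction of the 5 was not tested apart from this selection.

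Enzymes that remove or edit nucleic acids went both ways. Of 15 tested, 5 were higher and 7 lower in PHF19_KD than in shEV, with a median of -0.05. RNASEH2A and RNASEH2B, subunits of the enzyme that removes RNA from RNA-DNA hybrids, changed by -2.06 ± 0.09 and -1.47 ± 0.06, and after rescue they changed by 1.90 ± 0.10 and 1.42 ± 0.07. PLD3, a lysosomal exonuclease, and RNASET2, a lysosomal ribonuclease, changed by 0.99 ± 0.08 and 0.83 ± 0.07 in PHF19_KD. TREX1, a cytosolic DNA exonuclease named after its value was seen, was not called (-0.05). In KD_Rescued against PHF19_KD 6 of the list were higher and 5 lower.

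Regulators of the sensors also went both ways. Of 24, 9 were higher and 11 lower in PHF19_KD than in shEV, with a median of -0.09. RNF125, a ubiquitin ligase that marks RIG-I for degradation, averaged 13.4 CPM in KD_Rescued, 9.42 in PHF19_KD and 23.3 in shEV and changed by -1.30 ± 0.10 between PHF19_KD and shEV. PCBP2, which promotes degradation of MAVS, changed by 1.13 ± 0.04, TRIM14, a scaffold at MAVS, by 1.01 ± 0.08 and TOMM70A, a mitochondrial import receptor, by -0.64 ± 0.05. In KD_Rescued against PHF19_KD 10 were higher and 7 lower, PCBP2 at -1.22 ± 0.04 and the folate and cyclic dinucleotide carrier gene SLC19A1 at 1.12 ± 0.12. ENPP1, which degrades cyclic GMP-AMP outside cells, was 0.82 ± 0.10 higher in KD_Rescued than in shEV.

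Interferon genes themselves were hardly read. Of 22 type I, II and III interferon genes, 17 had 0 counts in all 9 libraries and none exceeded 3 counts in any library. IFNB1, the best known target of IRF3, had 0 and 1 counts in KD_Rescued, 1, 0 and 1 in PHF19_KD, and 0 in each shEV library. Of 11 genes of the interferon receptors and their kinases and STAT factors, 7 were higher and 2 lower in PHF19_KD than in shEV, with a median of 0.22. IFNGR1 changed by 0.81 ± 0.08 and STAT2 by 0.35 ± 0.04, and the falls were IFNAR2 at -0.21 ± 0.04 and IFNLR1 at -0.20 ± 0.05. Upper-quartile scaling ended both falls (adjusted p = 0.332 and 0.493, edgeR). In KD_Rescued against PHF19_KD 6 were lower and 3 higher, with STAT2 at -0.58 ± 0.05 and TYK2 at 0.62 ± 0.08.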

How the data were processed

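Gene expression was measured by RNA-seq in 9 libraries of MM1S cells. The authors deposited 1 table of estimated counts per gene, unscaled. Per the submitters' processing notes, CASAVA, RSEM and the build hg19 are listed, with no version or role stated, and the table's name points to salmon. How strand was set, which annotation was used and what was filtered is not given in the sources used here. The table gives no coordinates, so positions come from RefSeq promoters (GRCh38.p14) matched by current or older symbol, and overlaps from GENCODE 29.

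Estimated counts were rounded and fitted with edgeR 4.0.16 in R 4.3.3 (filterByExpr by group, TMM, robust dispersions, glmQLFit, glmQLFTest), with 8 libraries in 1 fit of group means, so KD_Rescued borrowed the spread of the other groups. Benjamini-Hochberg adjustment ran over all 16600 genes tested, and genes with an adjusted p below 0.05 were called. A fold change's SE is its size divided by the square root of F. A count was taken as whole within 0.01. CPM of the library with disagreeing labels were scaled by TMM against the same reference library. Replicates differed by more than counting noise (chi-square per degree of freedom from 1.37 to 9.15 in genes counted whole with 20 or more reads). The top of this range came from shEV replicate 3, whose pairs with the other shEV libraries had 8.14 and 9.15. All other pairs lay between 1.37 and 2.25. The fit was tested on simulated data with far fewer changed genes than were called here. It recovered 24%, 44%, 62% and 94% of changes of 1.25-, 1.5-, 2- and 4-fold, and 5.08% of calls were false. A gene that was not called may therefore still have changed.

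Named were all 10 genes, PHF19, and from each other list at most 4 genes per comparison, namely 2 called rises and 2 called falls, lowest adjusted p first, or, if none was called, the 2 with the highest level, of which the text gives a part, and 1 gene so named is not reported here. For genes called in both knockdown comparisons, the 2 nearest profiles (log2 CPM, prior count 2) were named. Members and lists were chosen with earlier results of these data known. Alternatives covered RLE and upper-quartile scaling, DESeq2 1.42.0, limma-voom 3.58.1, 2 filters, leaving out mitochondrially encoded genes, a replicate block and leaving out each library.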

Additional observations from a re-analysis of the deposited data

Results flagged for a closer look

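The library with disagreeing labels entered no comparison. For 4 of the 10 genes its level, with the lower bound of its exact Poisson 95% interval, was above the highest shEV value. The share of all tested genes that pass this rule was not computed, so the count is not read as particular to these genes. Separation from shEV was common, since all PHF19_KD libraries lay above shEV for 36.6% of all tested genes. DHX58 had 11.04 CPM (9.09 to 13.3), against at most 1.83 CPM in shEV. TMEM173 had 2.27 CPM (1.44 to 3.40), against at most 0.531 CPM in shEV. TLR3 had 1.18 CPM (0.611 to 2.07), against at most 0.472 CPM in shEV, which is 12 reads against 8 reads in that shEV library, and the counting error of those 8 reads is not included. IRF3 had 73.7 CPM (68.5 to 79.2), against at most 58.2 CPM in shEV. MB21D1 went the other way, at 12.7 CPM (10.6 to 15.1), against at least 19.7 CPM in shEV. The intervals cover counting error of this library only and not that of shEV, and a single library has no replicate spread.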

How the results depend on the processing

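Between PHF19_KD and shEV, DHX58, DDX58, TMEM173, TLR7, MB21D1 and IRF3 kept their direction and call in each alternative that tested them, and the other members' lost calls are given in the report. With a filter at 5 CPM, which removes TLR7, 1 gene was called lower there in place of 2. Called higher and lower there were 4 to 6 and 2 genes without single libraries. Over all genes these settings called 5372 to 5855 higher and 5357 to 5899 lower, beside 5793 and 5683. Between KD_Rescued and PHF19_KD, 3 to 6 were called lower and 1 higher without single libraries. Over all genes 4062 to 5318 were lower and 4928 to 6004 higher in that comparison, beside 4904 and 5622. Between KD_Rescued and shEV, the number called lower (TLR7 alone, 1) became 0 with DESeq2, with the filter at 5 CPM and with a replicate block, and was 0 to 1 without single libraries. Over all genes, 4048 to 7539 were called between KD_Rescued and shEV without single libraries, beside 6599. Of these, 2168 to 3714 were higher and 1880 to 3825 lower, beside 3436 and 3163. DESeq2 called 2231 higher there, a share of 42.3% in place of 52.1%.

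The log2 fold change of MAVS between KD_Rescued and shEV changed sign to -0.0426 with RLE factors, -0.0427 with DESeq2, -0.0462 with no filter, -0.0154 with a replicate block and -0.0223 when mitochondrially encoded genes were left out, and ran from -0.0207 to 0.0467 without single libraries. That of TLR3 became 0.25 with the block and ran from -0.50 to 0.37 without single libraries. Their cause was not tested, and none was called. Replicate numbers did not pair the libraries (correlations of same-numbered libraries from -0.00999 to 0.0256 over 7 pairs). The replicate block called 11537 genes between PHF19_KD and shEV, beside 11476, and it ended the calls of TLR3 between KD_Rescued and PHF19_KD (adjusted p = 0.0543) and of TLR7 between KD_Rescued and shEV (adjusted p = 0.0579) and made that of MAVS between KD_Rescued and PHF19_KD (adjusted p = 0.0331).

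Upper-quartile scaling took the share of higher calls between KD_Rescued and PHF19_KD from 53.4% to 42.1% and the median of all genes there from 0.03 to -0.12. It gave 13 higher in place of 8 for adaptors and kinases and 7 lower in place of 11 for sensor regulators between PHF19_KD and shEV, and 7 lower in place of 4 for other sensors, 8 in place of 3 for adaptors and kinases and 1 higher in place of 3 for the interferon receptor genes between KD_Rescued and PHF19_KD. Without a filter, between PHF19_KD and shEV, 9 in place of 5 other sensors were lower, and 5 higher and 4 lower in place of 8 and 2 for adaptors and kinases. Calls over all genes also moved, to 5659 higher and 6542 lower of 34052 tested, beside 5793 and 5683 of 16600. At about 10 reads per library or below, depth limits what can be seen. This holds for TLR3 and TLR9, for TLR7 in PHF19_KD (6 to 11 reads) and for TMEM173 in shEV (9 to 10 reads).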
